A study of Saccharomyces cerevisiae with 28 samples.

Results

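The members are the guides of the exomer and chitin synthase genes CHS5 (YLR330W), CHS6 (YJL099W), BCH1 (YMR237W), BCH2 (YKR027W), BUD7 (YOR299W) and CHS3 (YBR023C) of Saccharomyces cerevisiae. A guide was counted as a member where the deposited guide lists of the activation screens, in the rows used here, give one of the 6 genes as its target. These rows pair 2278 of the 40890 guides of the library with a gene or another transcript, and 3 of the paired guides belonged to 2 of the 6 genes, 1 to CHS5 and 2 to CHS6. A further 3 guides of the library were placed beside a member gene by position alone, 1 each at CHS5, CHS6 and BUD7. No guide of BCH1, BCH2 or CHS3 was among the rows used here, so that these genes were not analysed here.

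All libraries came from the diploid industrial strain Ethanol Red, engineered to secrete an Aspergillus niger α-amylase from a codon-optimised gene at the HO locus. Each cell carried a plasmid with 1 guide and dCas9, a form of Cas9 without nuclease activity that still binds at the target of its guide. It was expressed from the TEF1 promoter and fused to the activator VPR in the activation libraries and to the repressor Mxi1 in the repression libraries, while anhydrotetracycline induced the guide RNA. Droplets with the brightest amylase signal were collected as the high fluorescence fraction and all others passed into the low fluorescence fraction, cells of both were regrown on plates with geneticin, and the guide region was amplified and sequenced. The early activation screen gave 2 high and 2 low libraries, rounds 2 to 5 of the main activation screens 8 high and 8 low libraries, and rounds 1 and 2 of the main repression screens 4 high and 4 low libraries, with 2 replicates per round and 28 libraries in all.

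Exomer is a coat complex of the trans-Golgi network that carries a small set of membrane proteins to the cell surface. Its scaffold is Chs5, which is joined by members of a family of related adaptor proteins, Chs6, Bch1, Bch2 and Bud7, and the complex is recruited by the small GTPase Arf1. The best known cargo is Chs3, the catalytic subunit of chitin synthase III, which makes most of the chitin of the cell wall and the chitin ring at the bud neck and stays inside the cell when Chs5 or Chs6 is missing.

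The 3 paired guides are shown because the results for CHS5 and CHS6 turn on them. Capitals mark the 12 bases next to the PAM, the stretch in which dCas9 tolerates mismatches least.
CHS5 guide 1: aaaatttgAAAATTCTGAAT
CHS6 guide 1: gaatcgtgCTTGGGGTGCTG
CHS6 guide 2: ggggagtaCCATTGGTGAAG
The sequences differed widely in base composition. CHS5 guide 1 had a GC content of 15%, and 2.77% of the library had as little or less, against a library median of 40%. CHS6 guide 1 had 60% and CHS6 guide 2 had 55% GC, and 98.4% and 95.4% of the library lay at or below these values. None of the 3 held a run of 4 thymines, the signal that ends transcription by RNA polymerase III and that 11.3% of the library carried. Every other guide differed from CHS5 guide 1 at 4 or more of its 20 positions and from each CHS6 guide at 6 or more.

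The 3 guides that were placed by position alone are shown because they are the only further guides at a member gene in the rows used here.
CHS5 placed guide 1: gtagatgcTAAATGTTATCG
CHS6 placed guide 1: tggccaaaACAAATTCATAA
BUD7 placed guide 1: acgaatgcAAATATAGCAAG
These were taken from 400 bases before to 100 bases after a coding start, with the positions of the guide list and the coding starts of the R64 gene table. In that table CHS5 is at positions 787664 to 789679 of chromosome XII, CHS6 at positions 239414 to 241654 of chromosome X and BUD7 at positions 878435 to 880675 of chromosome XV, all on the plus strand. CHS5 placed guide 1 was listed at position 787610 on the plus strand, 54 bases before the coding start, and is paired in the guide list with the cryptic unstable transcript CUT746. CHS6 placed guide 1 was listed at position 239409 on the minus strand, 5 bases before the coding start, and BUD7 placed guide 1 at position 878290 on the plus strand, 145 bases before it. None of the 3 positions lay inside an annotated gene. CHS6 guide 2, which the list pairs with CHS6, was listed at position 238911 on the minus strand, 503 bases before the coding start and inside LSB6, at positions 237263 to 239086. No position is given for CHS5 guide 1 and CHS6 guide 1 in the rows used here, and whether a position marks the first base of a guide or its cut site is not given in the sources used here.

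Libraries held 205969 to 2382465 reads in the high and 50433 to 2464879 reads in the low fraction of the main activation screens, 1842307 to 3346567 and 1603093 to 3359719 reads in the high and low fractions of the repression screens, and 1137532 to 1880556 and 809772 to 1883257 reads in those of the early screen. High fraction libraries held fewer guides, with 3585 to 5958 detected against 5128 to 11382 in the low fraction under activation and 6362 to 9937 against 18248 to 20701 under repression. CPM is the usual scaling of the reads of a guide to the depth of its library. Where all libraries of a group had 0 reads, a floor of 3 reads per library was used. The RLE factors, which scale libraries by the median ratio of their guides, were 0.0486 to 1.11 in the high and 3.36 to 8.74 in the low fraction of the main activation screens, so that a guide of equal CPM in both counted as enriched once they were applied. Unless another scaling is named, log2 fold changes set the high against the low fraction with these factors, and the likelihood ratio gave their standard errors (SE). A high fraction library of the repression screens, round 2 replicate 2, stood apart from the other 3. Of 2204 guides above 20 CPM in all 3 of those, 1175 (53.3%) had 2 reads or fewer in it, and its correlation with them over guides was 0.352 to 0.369, against 0.488 to 0.512 among the others. Nothing in the labels says that replicates came from separate cultures, so p-values measure the spread between these libraries, which may be technical.

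The main activation comparison asked which guides accumulated in cells whose droplets held more secreted amylase. CHS5 guide 1 had nearly all of its high fraction reads in 1 library. In the high fraction it had 0 and 20 reads in round 2, 10505 and 41 in round 3, 0 and 7 in round 4, and 0 and 0 in round 5. In the low fraction it had 2 and 0 reads in round 2, 10 and 21 in round 3, 0 and 7 in round 4, and 0 and 7 in round 5. The highest library, round 3 replicate 1, thus held 99.4% of the reads of this guide in the high fraction, at 11938 CPM. There it made up 1.19% of all reads (95% Wilson interval 1.17% to 1.22%, counting error only) and was the guide of rank 21. The other 7 high libraries had 0 to 97.1 CPM and the low libraries 0 to 28.0 CPM, so that the fractions overlapped. The mean was 1509 ± 4214 CPM in the high fraction and 7.88 ± 9.53 CPM in the low fraction (SD, n = 8 each), and the medians were 1.94 and 6.29 CPM. By CPM the guide was higher in the high library of 3 of the 8 sorts, lower in 3 and at 0 in both in 2. Its log2 fold change was 12.43 (SE 2.93) over all 8 sorts. Without round 3 replicate 1 it was 5.54, and without both replicates of round 3 it was 4.82. No test is given for these values, since the guide is paired with CHS5 only through a list ordered by the adjusted p of this same contrast.

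CHS6 guide 1, of the adaptor that works with Chs5 in the transport of Chs3, had reads in all 8 high fraction libraries of the main activation screens. It had 67 and 7 reads in the high fraction of round 2, 2 and 2 in round 3, 6241 and 824 in round 4, and 6 and 5 in round 5. In the low fraction it had 0 and 0 reads in round 2, 1 and 4 in round 3, 2 and 2 in round 4, and 200 and 38 in round 5. Rounds 2 and 4 were therefore high in the high fraction and round 5 was high in the low fraction, while round 3 had few reads in either. The highest value was 2854 CPM in round 4 replicate 1, which held 87.2% of the reads of the high fraction, followed by 456.9 CPM in round 4 replicate 2, against 1.37 and 2.39 CPM in the low libraries of that round. In round 5 the guide had 2.52 and 2.38 CPM in the high libraries and 81.1 and 34.4 CPM in the low libraries. The mean was 427.7 ± 992.5 CPM among high and 15.6 ± 28.9 CPM among low libraries (SD, n = 8 each), with medians of 18.3 and 2.53 CPM and overlapping ranges.

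For CHS6 guide 1 the log2 fold change was 11.09 ± 2.80 (SE, adjusted p = 0.00281, edgeR's likelihood ratio test, adjusted after Benjamini and Hochberg). It stands in the lists of both activation screens, so its pairing did not depend on this contrast alone. The direction in single sorts depended on the scaling. By CPM the guide was higher in the high library in 4 of 8 sorts, and with the RLE factors in 8 of 8. In a two-sided exact permutation test over the 16 libraries, the difference in mean log2(CPM + 1) was 2.50 by CPM (p = 0.131) and 6.14 with the factors (p = 0.000311, where the smallest p the design allows is 0.000155). Without round 4 replicate 1 the log2 fold change was 7.72 (adjusted p = 0.0318, edgeR's likelihood ratio test), and without both replicates of round 4 it was 4.53 and no longer passed the threshold (adjusted p = 0.0715, edgeR's likelihood ratio test). High and low libraries with the same round and replicate number were taken as 1 sort, and neither this fit nor the permutation used that link. With the sort as a block the log2 fold change was 6.48 and the call was lost (adjusted p = 0.0829, edgeR's likelihood ratio test), and 16 guides in all were then called enriched.

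The other paired guide of CHS6 had most of its reads in the low fraction. CHS6 guide 2 had 1 and 0 reads in the high fraction of round 2, 1 and 3 in round 3, 1 and 0 in round 4, and 0 and 3 in round 5. In the low fraction it had 3 and 7 reads in round 2, 49 and 122 in round 3, 55 and 189 in round 4, and 4 and 0 in round 5. No high library thus held more than the floor of 3 reads, while 6 of the 8 low libraries did. The mean was 0.834 ± 0.921 CPM among high and 79.0 ± 82.2 CPM among low libraries (SD, n = 8 each), with ranges of 0 to 2.63 and 0 to 225.8 CPM. By CPM it was higher in the high library in 1 of 8 sorts, with a difference in mean log2(CPM + 1) of -4.08 (two-sided exact permutation p = 0.00357). With the RLE factors it was higher in 4 of 8 (exact permutation p = 0.284), and its log2 fold change was -1.59 ± 1.64 (SE, adjusted p = 0.507, edgeR's likelihood ratio test). With library size as the only scaling the log2 fold change was -6.37 and passed the threshold (adjusted p = 0.0135, edgeR's likelihood ratio test), and the median log2 fold change of all guides was then -5.13, against -0.94 with the RLE factors.

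Set against each other within each library, which removes the library factor apart from the pseudocount of 1, CHS6 guide 1 exceeded CHS6 guide 2 in 7 of 8 high libraries and in 2 of 8 low libraries of the main activation screens. The mean difference between the guides, guide 1 minus guide 2 in log2(normalised CPM + 1), averaged 5.18 among high and -2.01 among low libraries. The fractions differed by 7.19 in this measure (two-sided exact permutation p = 0.00342, a comparison chosen after the values were seen). The same comparison gave -1.49 in the repression screens (exact permutation p = 0.371, 4 against 4 libraries), with guide 1 above guide 2 in 2 of 4 high and 2 of 4 low libraries.

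In the early activation screen the order of the CHS6 guides was the other way round, with guide 1 above guide 2 in 0 of 2 high and 1 of 2 low libraries. CHS6 guide 1 had 0 and 0 reads in the high libraries, against 170 and 53 reads in the low libraries (90.3 and 65.5 CPM). It was at least 36.8-fold lower in the high fraction, taking the floor of 3 reads per library, and its fitted log2 fold change of -9.00 (SE 4.11), which was -5.05 with a prior count of 2, did not pass the threshold (adjusted p = 0.129, edgeR's likelihood ratio test), but passed it with filterByExpr, TMM factors and library size alone. CHS6 guide 2 had 2244 and 107 reads in the high libraries (1193 and 94.1 CPM), against 339 and 0 reads in the low libraries (180.0 and 0 CPM). The low library of replicate 1 therefore lay above the high library of replicate 2, and 95.4% of the high fraction reads came from replicate 1. Its log2 fold change was 7.45 (SE 4.61), given without a test because the guide is paired with CHS6 only through a list ordered by the adjusted p of this contrast. CHS5 guide 1 was detected only in replicate 1, with 21 reads in the high library and 150 reads in the low library (11.2 and 79.6 CPM). The log2 fold change of CHS5 guide 1 was 1.86 with the RLE factors (SE 2.74, adjusted p = 0.605, edgeR's likelihood ratio test) and -2.01 with TMM factors and -3.29 with library size alone, so that no direction can be given.

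None of the 4 tested member guides was called in the early screen, in which 0% of the 4206 tested guides were called enriched and 0% depleted (log2 FC beyond 8, FDR < 0.1, edgeR's likelihood ratio test). At an unadjusted p under 0.05 and a log2 FC beyond 8, edgeR's likelihood ratio test gave 272 guides higher and 903 lower. Among the member guides 0 were higher and 2 lower. The 2 lower guides, CHS6 guide 1 and CHS5 placed guide 1, had 0 reads in the high libraries and passed the filter through the low libraries alone. DESeq2's Wald test called 390 guides enriched and 217 depleted, none of them a member, and edgeR's quasi-likelihood test called none. Between the early and the main activation screens, the log2 fold change of CHS6 guide 1 differed by -19.72 ± 7.07 (SE, adjusted p = 0.342, edgeR's interaction term). For CHS6 guide 2 this difference was 9.97 (SE 5.36), given without a test. Of 15358 guides in that comparison, 0% passed an FDR of 0.05.

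Over the main activation screens, 13.9% of 14262 tested guides were called enriched and 1.73% depleted (log2 FC beyond 3, FDR < 0.05). Of the 6 guides of the member genes 5 were tested, and 2 were called enriched and 0 depleted. The 2 called guides, CHS5 guide 1 and CHS6 guide 1, stand in the list ordered by this contrast, so that nothing is read from their number. The median log2 fold change of all tested guides was -0.94, with 41.6% above 0. The calls changed sides with the scaling, since 1983 guides were enriched and 247 depleted with RLE factors, 1314 and 420 with TMM factors, and 583 and 7290 with library size alone. CHS6 guide 1 was above 0 under each of these scalings, with log2 fold changes of 10.28 with TMM factors and 4.67 with library size alone, and CHS5 guide 1 was at 10.99 and 7.49.

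The guides placed by position had few reads under activation. CHS6 placed guide 1, the one closest to its coding start, had 0 reads in all 16 main activation libraries and 0 and 0 reads in the high and 1 and 0 reads in the low libraries of the early screen. BUD7 placed guide 1, at the gene of another adaptor of the Chs6 family, had 0 reads in all 8 high libraries of the main activation screens and 16 reads in 2 of the 8 low libraries. Its log2 fold change was -2.82 ± 3.90 (SE, adjusted p = 0.621, edgeR's likelihood ratio test). With library size alone it was -3.76 and past the threshold (adjusted p = 0.0493, edgeR's likelihood ratio test), where 7290 of all 14262 tested guides were depleted. The guide passed the filter through low libraries alone, so no support is drawn from this value. CHS5 placed guide 1 had 4 reads in 2 high libraries and 49 reads in 2 low libraries, 48 of them in round 2 replicate 1, where it reached 149.7 CPM. Its log2 fold change was -1.14 ± 1.93 (SE, adjusted p = 0.685, edgeR's likelihood ratio test), and without round 2 replicate 1 it was 4.77. In the early screen this guide had 0 and 0 reads in the high libraries and 110 and 60 reads in the low libraries (58.4 and 74.1 CPM). By CPM it was at least 31.3-fold lower in the high fraction, a bound that the RLE factors would make smaller. The fitted value of -8.81 (SE 4.04), which was -4.86 with a prior count of 2, did not pass the threshold (adjusted p = 0.129, edgeR's likelihood ratio test), but passed it with filterByExpr, TMM factors and library size alone (adjusted p = 0.0700 to 0.0855).

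Under repression all 6 guides of the member genes were detected and tested, and none was called. CHS5 guide 1 had 177 and 85 reads in the high libraries of round 1 and 423 and 2 in those of round 2, against 307 and 234 reads in the low libraries of round 1 and 131 and 371 in those of round 2. In CPM these were 52.9, 26.7, 229.6 and 0.744 in the high fraction and 91.4, 95.1, 81.7 and 137.8 in the low fraction. The low libraries lay close together, while the high libraries included both the highest and the lowest value. The log2 fold change was 0.03 ± 1.19 (SE, adjusted p = 0.993, edgeR's likelihood ratio test; two-sided exact permutation p = 0.486), with the guide higher in 1 of 4 sorts by CPM. The 95% interval from this SE ran from -2.31 to 2.36, so that sizeable changes in either direction were not detectable with these libraries. The sign of so small a value turned under other scalings, to -0.51 with TMM factors and -0.39 with library size alone.

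Both CHS6 guides had higher mean CPM in the high fraction of the repression screens, within the spread of the libraries, and the direction depended on the measure. CHS6 guide 1 had 198 and 1130 reads in the high libraries of round 1 and 518 and 0 in those of round 2, against 256 and 139 in the low libraries of round 1 and 139 and 451 in those of round 2. The means were 173.7 ± 170.7 CPM among high and 96.7 ± 48.8 CPM among low libraries (SD, n = 4 each), with a log2 fold change of 1.15 ± 1.25 (SE, adjusted p = 0.597, edgeR's likelihood ratio test). It was higher in 2 of 4 sorts, and the difference in mean log2(CPM + 1) was negative, at -0.46 with the factors and -0.86 without them (exact permutation p = 0.914 for each). CHS6 guide 2 had 1050 and 807 reads in the high libraries of round 1 and 217 and 2 in those of round 2, against 406 and 159 in the low libraries of round 1 and 89 and 209 in those of round 2. It was higher in 3 of 4 sorts, at 171.3 ± 140.2 CPM among high and 79.7 ± 28.9 CPM among low libraries (SD, n = 4 each), with a log2 fold change of 1.46 ± 1.16 (SE, adjusted p = 0.403, edgeR's likelihood ratio test). The difference in mean log2(CPM + 1) was 1.03 with the factors (exact permutation p = 0.229) and -0.28 without them (exact permutation p = 0.971). All 3 paired guides were at 0 or 2 reads in the high library of round 2 replicate 2, the one that stood apart. Without that sort their log2 fold changes were 0.47 for CHS5 guide 1, 1.90 for CHS6 guide 1 and 1.74 for CHS6 guide 2.

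CHS5 placed guide 1 was lower by CPM in the high library of each of the 4 repression sorts. It had 141 and 116 reads in the high libraries of round 1 and 105 and 0 in those of round 2, against 353 and 173 in the low libraries of round 1 and 100 and 190 in those of round 2. By CPM the fractions did not overlap, at 0 to 57.0 CPM among high and 62.4 to 105.1 CPM among low libraries (two-sided exact permutation p = 0.0286, the smallest that 4 against 4 libraries allow). The share of all guides without overlap was not counted. High libraries of these screens held fewer guides in general (6362 to 9937 against 18248 to 20701), so nothing particular to this guide is read from it. With the RLE factors the permutation p was 0.0571 and the log2 fold change was -0.85 ± 1.35 (SE, adjusted p = 0.757, edgeR's likelihood ratio test), near the median of -0.72 of all guides tested. CHS6 placed guide 1 had 80 and 0 reads in the high libraries of round 1 and 0 and 0 in those of round 2, against 17 and 41 in the low libraries of round 1 and 72 and 24 in those of round 2. It was detected in all 4 low libraries and in 1 high library, where its 23.9 CPM lay above 3 of the low libraries (log2 fold change -1.26 ± 1.90, SE, adjusted p = 0.739, edgeR's likelihood ratio test). Without round 1 replicate 1, the sort with the 80 reads, the log2 fold change was -8.40 and past the threshold (adjusted p = 0.0219, edgeR's likelihood ratio test). No remaining high library then held a read of this guide. It passed the filter through low libraries alone, which fixed its direction, so no support is drawn from this value. BUD7 placed guide 1 had 1 read in the 4 high libraries and 29, 0, 25 and 0 reads in the low libraries (log2 fold change -4.69 ± 2.63, SE, adjusted p = 0.170, edgeR's likelihood ratio test).

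In the repression screens as a whole 5.85% of the 20561 tested guides were called enriched and 26.4% depleted (log2 FC beyond 3, FDR < 0.05), against 0 and 0 of the 6 guides of the member genes. No member guide had an unadjusted p under 0.05 in edgeR's likelihood ratio test, in edgeR's quasi-likelihood test or in DESeq2's Wald test, which gave CHS5 guide 1 no p. The 3 paired guides had log2 fold changes above 0, and the 3 placed guides below 0, while 39.9% of all tested guides lay above 0. The value of CHS5 guide 1 was only 0.03 and turned sign under other settings, so no contrast between paired and placed guides is read from this. With RLE factors 1202 guides were enriched and 5432 depleted, with TMM factors 162 and 6741, and with library size alone 48 and 6846. Without the sort of round 2 replicate 2 there were 20 enriched and 5663 depleted guides.

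Activation and repression were compared through the difference of their log2 fold changes. For CHS6 guide 1 it was 10.24 (SE 3.37, unadjusted p = 0.00238, adjusted p = 0.0524, edgeR's interaction term), just short of the FDR of 0.05 that 4.4% of 22043 guides passed. For CHS6 guide 2 it was -2.73 (SE 2.38, adjusted p = 0.759, edgeR's interaction term). CHS5 guide 1 had a difference of 12.98 (SE 3.76), given without a test because the activation contrast that selected it enters the difference.

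Beside the members, 20 genes of chitin synthesis and of exomer transport were looked up in the same lists, and 9 of them had a guide by either route, 11 guides in all. In the main activation screens 5 of these were tested, with 0 enriched, 1 depleted and a median log2 fold change of -2.33, against -0.94 for all guides tested. Of all guides tested there, 13.9% were enriched and 1.73% depleted. In the repression screens 8 were tested, with 1 enriched, 2 depleted and a median of -0.84, against -0.72 for all guides tested. Of all guides tested there, 5.85% were enriched and 26.4% depleted, so nothing is read from these small counts. In the early screen 3 were tested and 0 called by edgeR's likelihood ratio test. The guides of UTR2 (YEL040W) and RCR1 are paired with these genes only through a list ordered by the adjusted p of this contrast. Their early log2 fold changes, -11.26 (SE 4.87) for UTR2 and 6.89 (SE 4.43) for RCR1, are therefore given without a test. The UTR2 guide had 0 reads in both high libraries, against 93 and 506 reads in the low libraries. It passed the filter through low libraries alone, which fixed its direction. The RCR1 guide had 997 and 0 reads in the high libraries, against 20 and 70 reads in the low libraries. The guide depleted in both main screens was placed at ARF1 (YDL192W), which encodes the GTPase that recruits exomer to the Golgi membrane.
ARF1 placed guide 1: gatccactTGTTTATCGAGG
It is listed at position 116210 on the plus strand of chromosome IV, 111 bases before the coding start of the gene, which spans positions 116321 to 116866.

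Under activation the ARF1 guide had 1 read in 1 of 8 high libraries, against 828 reads in 7 of 8 low libraries, of which round 5 replicate 1 held 62.7%. The CPM were 0 to 1.02 in the high fraction, against 0 to 570.9 with a median of 11.3 in the low fraction (log2 fold change -5.55 ± 2.03, SE, adjusted p = 0.0435, edgeR's likelihood ratio test). This call was lost under 13 of the 19 other settings run, all of which gave a negative value. Under repression it had 0 reads in all 4 high libraries, against 202, 109, 28 and 5 reads in the low libraries (60.1, 44.3, 17.5 and 1.86 CPM). By CPM it was at least 27.0-fold lower in the high fraction, a bound that the RLE factors would make smaller. The fitted log2 fold change of the guide was -9.06 ± 2.57 (SE, adjusted p = 0.00756, edgeR's likelihood ratio test). Its fractions did not overlap under repression, where 26.4% of all tested guides were called depleted and the share without overlap was not counted. With 0 reads in every high library, the guide passed the filter through its low libraries alone, which fixed its direction, so no support is drawn from this call. That call was lost with edgeR's quasi-likelihood test (adjusted p = 0.0617) and with the sort as a block (adjusted p = 0.0828, edgeR's likelihood ratio test).

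The other 2 calls of this list were made in the repression screens. SKT5 placed guide 1, at the gene of the activator of Chs3, had 0 reads in the 4 high libraries, against 106, 13, 0 and 0 reads in the low libraries. By CPM it was at least 8.04-fold lower in the high fraction. This bound need not hold with the RLE factors, since the factor of 0.0358 raises the floor of the high library of round 2 replicate 2. The fitted log2 fold change was -7.33 ± 2.87 (SE, adjusted p = 0.0378, edgeR's likelihood ratio test). With 0 reads in every high library, this guide passed the filter through its low libraries alone, which fixed its direction, so no support is drawn from the call. It was lower in 2 of 4 sorts and at 0 in both libraries of the other 2 (exact permutation p = 0.429). The call was lost with edgeR's quasi-likelihood test (adjusted p = 0.0944), DESeq2's Wald test (adjusted p = 0.144) and the sort as a block (adjusted p = 0.112, edgeR's likelihood ratio test). A guide paired with RCR1 (YBR005W), whose product is known for its effect on chitin deposition, had 196, 406, 276 and 2199 reads in the high libraries, against 652, 709, 408 and 262 reads in the low libraries. It was lower in the high library in 3 of 4 sorts by CPM, and its log2 fold change of 5.58 ± 2.19 (SE, adjusted p = 0.0379, edgeR's likelihood ratio test) rested on the sort of round 2 replicate 2, without which it was -0.89. It was 1.48 with TMM factors, 0.46 with library size alone and 0.05 with the sort as a block, and no longer passed the threshold in any of these.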

How the data were processed

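The authors demultiplexed the reads and aligned them with BWA to the guide sequences, and deposited counts of reads per guide and library, not normalised and with replicates kept apart. The submitters' processing notes also name the build sacCer3. Columns of values that were not used numbered 0, and no libraries held identical values. From the deposited counts, the high was compared with the low fraction by edgeR 4.0.16 (R 4.3.3), each screen by itself, over guides with CPM above 1 in at least 2 of its libraries. A guide above 1 CPM in no high library passed this filter through low libraries alone, which fixed its direction. This held for CHS6 guide 1 and CHS5 placed guide 1 in the early screen and for BUD7 placed guide 1 in both main screens. It also held for the guides placed at ARF1 and SKT5 under repression and for the UTR2 guide in the early screen. Without round 1 replicate 1 it held for CHS6 placed guide 1 under repression as well. RLE factors, estimateDisp, glmFit and glmLRT were used, with a prior count of 0.125, Benjamini-Hochberg adjustment over all tested guides and all libraries of a fraction as replicates. Standard errors were obtained as |log2 fold change| over the root of the likelihood ratio. Single guides were also tested by exact permutation (scipy 1.17.1) of log2(CPM + 1), with and without the factors.

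Depth ranged from 50433 to 3359719 reads per library. PCR reads that carry no molecular identifiers are not independent molecules, and intervals and floors cover counting error only. The share of differing guides in these data that the fit misses is not known, and a guide short of the threshold may still differ. Alternatives were no filter, edgeR's filterByExpr, TMM factors, library size alone, edgeR's quasi-likelihood test, the Wald test of DESeq2 1.42.0, a prior count of 2, the sort as a block, and fits without 1 sort or 1 round.

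The guides named are those that the supplementary guide lists pair with a member gene, those placed at one by position, and those of the wider list of 20 genes that were called. Paired rows came from lists ordered by adjusted p in the activation screens, 461 of the main and 1995 of the early screen, and positions from 1999 rows in the order of the count table. Placing by position, the differences between screens and the comparison of the CHS6 guides were added after the files were seen. The members and the lists were chosen with earlier results of these data known. Gene names and coding starts came from the R64 gene table, which describes the same yeast reference as sacCer3. No genome sequence was used, so that PAMs and windows were not read from it.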

Additional observations from a re-analysis of the deposited data

Results flagged for a closer look

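Among groups of 4 to 8 libraries, 21 sets of CPM of a member guide were examined for a library far from the others by Dixon's criterion, and 8 met it. Chance meets this criterion in about 1 in 20 groups only where values are normally distributed. These are skewed counts with many zeros, and a set with reads in a single library meets it by construction, so 8 of 21 is not set against that rate. In each case a single library was the highest. CHS5 guide 1 had 11938.0 CPM in the high fraction of round 3 replicate 1 under activation, and the next library had 97.1 CPM. CHS6 guide 1 had 2853.8 CPM in the high fraction of round 4 replicate 1, against 456.9 CPM in the next library, and 81.1 CPM in the low fraction of round 5 replicate 1, against 34.4 CPM in the next. CHS5 placed guide 1 had 2.6 CPM in the high fraction of round 3 replicate 2 and 149.7 CPM in the low fraction of round 2 replicate 1 under activation. CHS6 placed guide 1 had 23.9 CPM in the high fraction of round 1 replicate 1 under repression, and the other 3 high libraries were at 0. BUD7 placed guide 1 had 6.1 CPM in the low fraction of round 5 replicate 1 under activation and 0.5 CPM in the high fraction of round 2 replicate 1 under repression, the last of these from 1 read.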

How the results depend on the processing

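The following values are log2 fold changes or numbers of guides, high over low fraction, and the causes of the changes were not tested. filterByExpr left none of the 3 paired guides in the main activation screens, and the alternative that asked for the PAM inside the promoter window was not run, because no genome was given. For CHS5 guide 1 under activation, DESeq2 gave 4.37, the replicate block 4.46 and leaving out round 3 4.82, and leaving out 1 sort gave 5.54 to 12.64. Under repression its sign turned with TMM (-0.51), library size alone (-0.39), the replicate block (-0.60) and without round 2 (-1.05), and leaving out 1 sort gave -1.22 to 0.47. In the early screen it turned with TMM (-2.01) and library size alone (-3.29). CHS6 guide 1 lost its activation call with the replicate block (6.48) and without round 4 (4.53), and leaving out 1 sort gave 7.72 to 12.39. In the early screen it passed the threshold with filterByExpr (-9.02), TMM (-9.53) and library size alone (-9.98), as did CHS5 placed guide 1 (-8.82, -9.24 and -9.72). CHS6 guide 2 passed it under activation with library size alone (-6.37). CHS5 placed guide 1 under activation turned with DESeq2 (4.86), the replicate block (2.15) and without round 2 (4.87), and leaving out 1 sort gave -2.96 to 4.77. BUD7 placed guide 1 under activation (-2.82 as reported) turned with DESeq2 (1.84) and passed the threshold with library size alone (-3.76). CHS6 placed guide 1 under repression turned without round 2 (0.32), and leaving out 1 sort gave -8.40 to 0.17. RCR1 guide 1 turned without round 2 (-1.18), and leaving out 1 sort gave -0.89 to 6.06. The fitted repression values of both CHS6 guides kept their sign and stayed short of the threshold in all 14 alternative fits, at 0.31 to 1.90 for guide 1 and 0.39 to 1.79 for guide 2, while the difference in mean log2(CPM + 1) was below 0 for guide 1 with and without the factors (-0.46 and -0.86) and for guide 2 without them (-0.28).

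Enriched guides under activation, 1983 as reported, numbered 810 with filterByExpr, 1314 with TMM, 583 with library size alone, 551 with DESeq2, 16 with the replicate block, 818, 1144, 929 and 925 without round 2, 3, 4 and 5, and 1297 to 1568 without 1 sort. Depleted guides, 247 as reported, numbered 140 with no filter, 39 with filterByExpr, 420 with TMM, 7290 with library size alone, 62 with DESeq2, 0 with the replicate block, 24, 116, 149 and 57 without round 2, 3, 4 and 5, and 99 to 209 without 1 sort. With the block, 1166 guides were higher and 697 lower at an unadjusted p under 0.05 and a log2 FC beyond 3. Under repression, enriched guides, 1202 as reported, numbered 720 with filterByExpr, 162 with TMM, 48 with library size alone, 0 with the quasi-likelihood test, 100 with DESeq2, 0 with the replicate block, 715 and 34 without round 1 and 2, and 20 to 841 without 1 sort. Depleted guides, 5432 as reported, numbered 1812 with filterByExpr, 0 with the quasi-likelihood test, 3129 with DESeq2 and 0 with the replicate block, and 4692 to 6041 without 1 sort. At an unadjusted p under 0.05 and a log2 FC beyond 3, the quasi-likelihood test gave 1091 higher and 6049 lower and the block 35 higher and 6494 lower. In the early screen, with 0 and 0 as reported, enriched and depleted guides numbered 39 and 681 with filterByExpr, 26 and 966 with TMM, 26 and 1166 with library size alone, and 390 and 217 with DESeq2. Leaving out 1 early sort left 1 library against 1 and gave values without a test.

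Both libraries of 1 sort carry the same round and replicate number. Their deviations from the fraction means correlated at -0.0112 to 0.116 under activation, 0.00588 to 0.0165 under repression and -0.0137 in the early screen. In the same order, 5 of 8, 3 of 4 and 0 of 2 high libraries correlated best with their own number. The correlations were small, but most high libraries of the main screens matched their own number. A link within a sort is therefore possible there and was not tested, and fits without the block leave it out. The low library of round 2 replicate 2 under activation had 50433 reads, where 3 reads are 59.5 CPM, and most values of the member guides in that screen lay below this level.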
